A study of Schizophyllum commune with 14 samples.

Results

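In the split gill mushroom Schizophyllum commune, stage 2 primordia, which were 3 to 4 mm tall and bore a pit at the apex, were compared with stage 1 primordia, the initials of up to 2 mm. The comparison uses 5 of the series' 14 RNA libraries, chosen by their labels: replicates 2 and 3 of stage 2 and replicates 1, 2 and 3 of stage 1. All of them come from a dikaryon of the monokaryons H4-8a and H4-8b. Plugs of 5 mm were put on MM medium for 5 days at 30 °C without light, and then, turned over, for 10 days at 25 °C with alternating 12 h of light and 12 h of darkness. Poly(A) RNA with an RNA integrity number above 8 was taken from whole harvested primordia, so tissue layers were not separated. The replicates are biological per the series design. In such bulk RNA, fewer cells of a type and less RNA per cell cannot be told apart.

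A primordium of S. commune begins as a knot of aggregated hyphae and becomes a cup whose inner surface later bears the spore-forming layer. Light is needed for this, and the blue light receptor complex formed by the products of WC1 and WC2 senses it. Transcription factors such as the zinc finger protein C2H2 and Fst4 act early, and strains without them do not form normal primordia or fruiting bodies. Hydrophobins are small secreted proteins that assemble on the surface of hyphae. SC3 coats aerial hyphae, and other members are made in the fruiting dikaryon.

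The 3 stage 1 libraries held 18469347, 18805939 and 19176833 unique gene reads, and stage 2 replicates 2 and 3 held 15694621 and 17842961. Levels below are in CPM, these reads relative to the library's total after TMM scaling, a factor per library that makes most genes comparable, and they are not corrected for transcript length. The TMM factor of stage 2 replicate 2 was 0.548, against 0.86 to 1.21 in the other libraries of the series. Its 50 most abundant models took 31.48% of its reads, compared with 27.26% in stage 2 replicate 3 and 16.95% to 26.24% in stage 1, and 1874 of 16319 transcript models had no read, against 1513 to 1585 in the other primordium libraries. The biological coefficient of variation was 0.286 within stage 1 and 0.459 within stage 2. As a description across genes, which are not replicates, log2 CPM correlated at 0.9675 to 0.9832 between stage 1 libraries and at 0.9448 between the stage 2 libraries. Between a stage 1 and a stage 2 library the correlation was 0.8212 to 0.9264, highest for replicate 3 of both stages. Both stages were read on the same flow cell.

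As primordia grew from stage 1 to stage 2, 5930 of 14302 genes tested changed, or 41.5%, with 3172 (22.2%) higher and 2758 (19.3%) lower. The test was edgeR's quasi-likelihood test on all 14 libraries, with a Benjamini-Hochberg adjusted p below 0.05. By at least 4-fold, 1119 genes rose and 495 fell. The 2 stage 2 libraries did not contribute equally, so each was also fitted alone against stage 1, with the lone library assumed to vary like the other groups. That assumption is not met by the stage 2 pair, whose biological coefficient of variation of 0.459 was the largest. It was 0.0919 in the mycelium, 0.286 in stage 1, 0.357 in the young fruiting body and 0.343 in the fruiting body. Fits with a lone library may therefore call too many genes. The joint fit shares its spread over the same groups and may do so too. Fitted on the 5 primordium libraries alone, 3939 of 13498 genes were called, and why there were fewer was not tested. Replicate 2 alone gave 5902 calls (40.9% of the genes kept in that fit) and replicate 3 alone gave 3069 (21.2%). These fits share the stage 1 libraries and are not independent.

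A change is said to hold in each stage 2 library where the joint fit and both single-library fits called it with the same sign. This was so for 2306 genes, 16.1% of those tested and 38.9% of the calls, of which 1267 (8.86%) were higher and 1039 (7.26%) were lower. A further 2385 calls were also made with replicate 2 alone but not with replicate 3 alone, 532 with replicate 3 alone but not with replicate 2 alone, and 707 in neither single-library fit. Being called with 1 library and not with the other does not show that the libraries differ. Both libraries lay on the called side of the stage 1 mean for 5902 of the 5930 calls and on opposite sides for 28. Over all genes tested, the changes fitted with each library alone had the same sign in 11001 (76.9%). Replicate 2 was the library further from stage 1 in 2216 of 3172 rises and 2125 of 2758 falls. Over all 14302 genes tested it was further, in the direction of the joint change, in 9052.

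**Figure D1:**
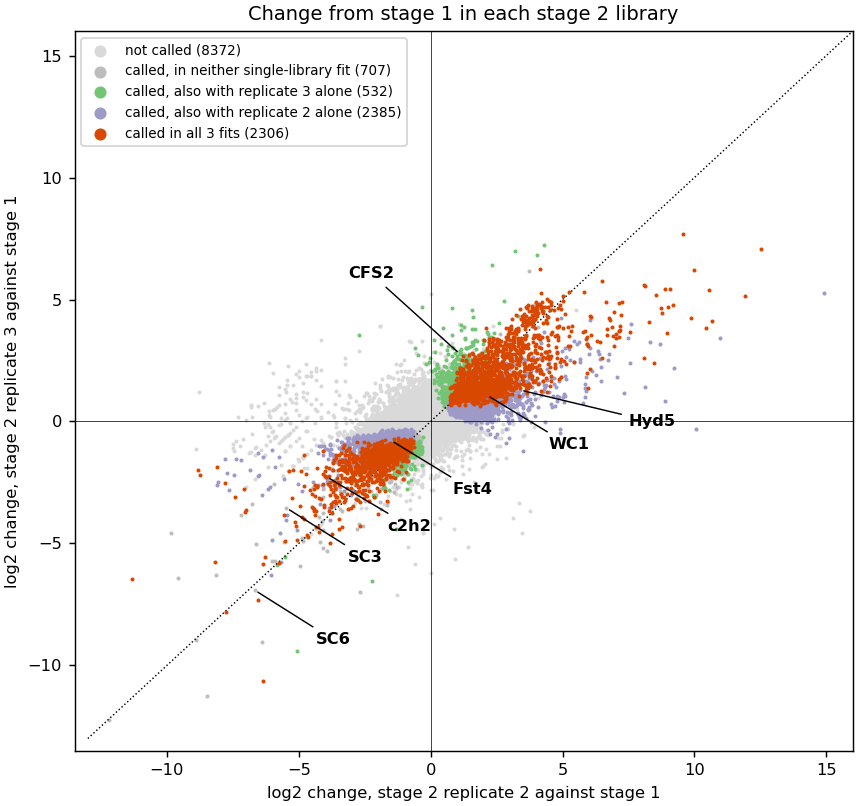
Log2 change from stage 1 fitted with stage 2 replicate 2 alone (x axis) and with replicate 3 alone (y axis), each point a gene of the 14302 tested, coloured by the fits that called it. The 2306 genes called in all 3 fits lie at the upper right and the lower left, and the rises spread further along the replicate 2 axis.

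Among the 1267 rises that hold in each library the median log2 change was 2.14, with 2.37 by replicate 2 and 1.83 by replicate 3, and the median level went from 11.2 to 59.2 CPM. Among the 1039 falls that hold the median was -1.67 (-1.86 and -1.47), from 61.0 to 18.8 CPM. Over all genes tested the median was 0.04. Stage 2 libraries did not overlap stage 1 libraries in any of the 2306. Irrespective of the test, 4254 genes (29.7%) lay higher in both stage 2 libraries than in all 3 stage 1 libraries and 4431 (31.0%) lay lower. The direction depends on scaling: with no factor beyond the library total, 32.6% of all calls were higher instead of 53.5%, 40.0% instead of 54.9% of the changes that hold, and the median of all genes moved from 0.04 to -0.37. This shift was mostly that of replicate 2. With replicate 2 alone the median moved from -0.05 to -0.92, and with replicate 3 alone from 0.0 to -0.09. Fitted on the 5 primordium libraries alone, 1090 of the changes that hold were higher and 1187 lower, so the majority turned there too (47.9% higher). Stage 1 replicate 3 was the stage 1 library nearest to stage 2 for 1627 of the 2306 genes, replicate 1 for 336 and replicate 2 for 341. Over all 14302 genes tested, replicate 3 was the nearest for 7523.

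Genes with a symbol moved mostly downwards. Of 20 such genes 19 were tested; 3 rose, 11 fell and 5 were not called, with a median log2 change of -1.11, while 22.2% and 19.3% of all genes tested rose and fell. In 16 of the 19 the stage 2 libraries did not overlap stage 1, which was also so for 8685 of all 14302 genes tested. WC1 and c2h2 were called in both single-library fits, as 16.1% of all genes tested were, and the others missed the threshold with at least 1 library. The lists hold only genes whose symbol matched, not whole families.

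**Figure D2:**
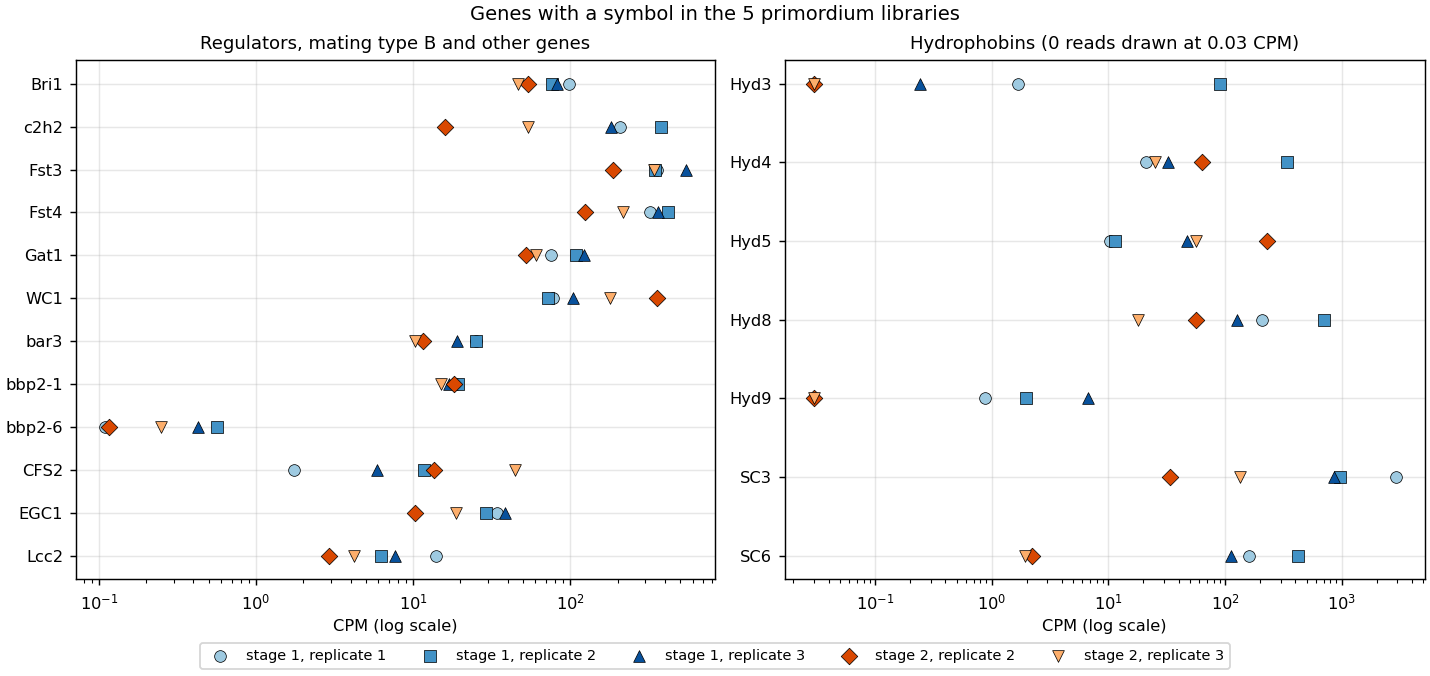
CPM on a log axis of the 19 tested genes with a symbol, each point a library, stage 1 in blue and stage 2 in orange; libraries without a read are drawn at 0.03 CPM. WC1, CFS2 and Hyd5 lie higher in both stage 2 libraries than in stage 1, and c2h2, Fst4, SC3 and SC6 lie lower.

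Of the 6 regulators, WC1 rose, 4 fell and Fst3 was not called, while 22.2% of all genes tested rose and 19.3% fell. WC1, the blue light receptor gene, was at 77.8, 71.7 and 104 CPM in stage 1 and at 356 and 179 CPM in stage 2 replicates 2 and 3. Replicate 2 was 4.21-fold and replicate 3 2.12-fold above the stage 1 mean, and the groups did not overlap. WC1 rose by a log2 change of 1.66 ± 0.27 (SE; adjusted p = 0.000704), by 2.13 with replicate 2 alone (adjusted p = 5.2e-05) and by 1.08 with replicate 3 alone (adjusted p = 0.0109). In the young fruiting body and the fruiting body it was at 109 ± 12.4 and 122 ± 13.5 CPM (SD, n = 3 each), below both stage 2 libraries.

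The gene c2h2 encodes a zinc finger protein without which primordia do not form. It was at 208, 378 and 181 CPM in stage 1 and at 15.9 and 53.8 CPM in stage 2. Both stage 2 libraries lay under every stage 1 library, replicate 2 16.1-fold and replicate 3 4.76-fold below their mean. The log2 change was -2.87 ± 0.63 (adjusted p = 0.00391), with -3.96 and -2.26 for each library alone (adjusted p = 0.00281 and 0.0454). WC1 and c2h2 thus changed in opposite directions, and both further in replicate 2.

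Fst4, a regulator needed for the start of fruiting, was at 322, 417 and 362 CPM in stage 1 and at 124 and 216 CPM in stage 2. The groups did not overlap, and Fst4 fell with both libraries (-1.11 ± 0.33, adjusted p = 0.016) and with replicate 2 alone (-1.51, adjusted p = 0.00898). With replicate 3 alone its log2 change of -0.77 did not pass (adjusted p = 0.15), nor did its call outlast a fit on the 5 primordium libraries alone. Gat1, a GATA-type regulator whose deletion gives more and smaller fruiting bodies, was at 75.6, 108 and 122 CPM and then at 52.1 and 60.7 CPM. The log2 change of Gat1 was -0.85 ± 0.27 (adjusted p = 0.0241), and neither single-library fit called it (adjusted p = 0.0577 and 0.139). Its call also ended without stage 1 replicate 2 or 3 (adjusted p = 0.0638 and 0.0856).

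Bri1, which encodes an ARID/BRIGHT domain protein, was at 98.6, 76.7 and 82.8 CPM in stage 1 and at 53.8 and 46.8 CPM in stage 2 (-0.77 ± 0.29, adjusted p = 0.0434). Its libraries did not overlap, and it was called with neither stage 2 library alone (adjusted p = 0.193 and 0.103) and under 5 of 14 alternatives. For Gat1 and Bri1 the stage 2 libraries were close to each other and the change was under 2-fold. Fst3, whose deletion also gives more and smaller fruiting bodies, was at 356, 348 and 547 CPM and then at 186 and 339 CPM. Both stage 2 libraries lay below stage 1, but the log2 change of -0.67 ± 0.44 did not pass (adjusted p = 0.246).

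Among the 7 hydrophobins, 5 fell, Hyd5 rose and Hyd4 was not called, while 19.3% of all genes tested fell. None of these changes was called in each single-library fit. The median log2 change was -4.22, also with the members at 0 reads placed at their bounds. The stage 1 libraries were far apart for most members: SC3 was highest in replicate 1, Hyd3, Hyd4, Hyd8 and SC6 in replicate 2, and Hyd5 and Hyd9 in replicate 3.

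SC6, a hydrophobin of the fruiting dikaryon, was at 160, 426 and 112 CPM in stage 1 and at 2.21 and 1.93 CPM in stage 2. The 2 stage 2 libraries held 19 and 31 reads and lay 105-fold and 120-fold below the stage 1 mean. SC6 fell by a log2 change of -6.82 ± 1.75 (adjusted p = 0.0095), but each library alone missed the threshold (adjusted p = 0.0596 and 0.0814). Its symbol rests on an older locus tag and is less certain than the others.

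SC3, whose product coats aerial hyphae, was at 2890, 969 and 852 CPM in stage 1 and at 34 and 135 CPM in stage 2. It was 46.1-fold and 11.7-fold below the stage 1 mean without overlap (-4.22 ± 1.48, adjusted p = 0.0382), and neither library alone gave a call (adjusted p = 0.0704 and 0.216). Its stage 1 mean leaned on replicate 1, without which the change was -3.43 and not called (adjusted p = 0.0918). It was not called without stage 1 replicate 2 (adjusted p = 0.0501) or by limma voom (adjusted p = 0.0627) either. Hyd8 was at 208, 710 and 127 CPM and then at 56.2 and 18.1 CPM, lower in both stage 2 libraries. Its log2 change was -3.23 ± 1.13 (adjusted p = 0.0382), and again neither library alone was enough (adjusted p = 0.187 and 0.0903). Without stage 1 replicate 2, its highest library, it was -2.17 (adjusted p = 0.124), and on the 5 primordium libraries alone it missed the threshold (adjusted p = 0.0515). For SC3 replicate 2 was the lower library, for Hyd8 replicate 3.

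Hyd3 and Hyd9 had no read in either stage 2 library. Hyd3 was at 1.69, 90.9 and 0.243 CPM in stage 1, so its level rested on replicate 2, and it was at least 254-fold lower in stage 2 when 3 reads over the group are taken as the limit of detection (adjusted p = 0.0369). The bound was 88.8 for replicate 2 and 166 for replicate 3, and without stage 1 replicate 2 the bound was 7.95 and the call ended (adjusted p = 0.157). Hyd9 was at 0.874, 1.95 and 6.73 CPM in stage 1 and at least 26.2-fold lower in stage 2 (adjusted p = 0.0311), at least 9.14-fold by replicate 2 and 17-fold by replicate 3. Without stage 1 replicate 3 its bound was 11.6; the call ended without stage 1 replicate 2 (adjusted p = 0.0525) and with DESeq2 (adjusted p = 0.224). Neither stage 2 library alone gave a call for Hyd3 (adjusted p = 0.144 and 0.147) or Hyd9 (adjusted p = 0.124 and 0.114). Stage 1 replicate 2 was the highest for Hyd3 and replicate 3 for Hyd9. These bounds cover counting error only.

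Hyd5 was the hydrophobin that rose. It was at 10.3, 11.5 and 46.8 CPM in stage 1 and at 231 and 56 CPM in stage 2, a rise of 10.1-fold by replicate 2 and 2.45-fold by replicate 3 over the stage 1 mean. The groups did not overlap, but stage 2 replicate 3 lay just above stage 1 replicate 3. The log2 change was 2.65 ± 0.92 (adjusted p = 0.0359), 3.39 with replicate 2 alone (adjusted p = 0.0208) and 1.29 with replicate 3 alone (adjusted p = 0.399). The call also ended without stage 1 replicate 1 or 2 (adjusted p = 0.105 and 0.106) and without a scaling factor, and without stage 1 replicate 3 the log2 change was 3.76. Hyd4 was at 21.1, 340 and 32.3 CPM in stage 1 and at 63.7 and 24.9 CPM in stage 2, with overlap (-1.57 ± 1.07, adjusted p = 0.259), and its sign turned without stage 1 replicate 2 (0.72).

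Of the mating type B genes, bar3, a pheromone receptor gene, fell and the pheromone precursor genes bbp2-1 and bbp2-6 were not called. bar3 was at 25, 25.2 and 19 CPM in stage 1 and at 11.5 and 10.2 CPM in stage 2, without overlap (-1.09 ± 0.39, adjusted p = 0.0381). With replicate 2 or 3 alone it was not called (adjusted p = 0.159 and 0.112), nor without stage 1 replicate 1 or 2 (adjusted p = 0.0874 and 0.0884). bbp2-1 was at 16.9 to 19.3 CPM in stage 1 and at 18.1 and 15.1 CPM in stage 2 (-0.14 ± 0.26, adjusted p = 0.679), and an interval of 2 SE each way ran from -0.66 to 0.37. bbp2-6 stayed under 1 CPM in all 5 libraries, and bbp2 was too low to test.

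CFS2 was at 1.75, 11.8 and 5.88 CPM in stage 1 and at 13.6 and 44.6 CPM in stage 2, where replicate 3 was the higher library. It rose by 2.17 ± 0.60 (adjusted p = 0.0123), with replicate 3 alone by 2.76 (adjusted p = 0.0123), while replicate 2 alone did not pass (1.11, adjusted p = 0.21). EGC1 was at 34.1, 28.9 and 38.6 CPM and then at 10.2 and 18.6 CPM (-1.22 ± 0.29, adjusted p = 0.00529), called with replicate 2 alone (adjusted p = 0.00203) and not with replicate 3 alone (adjusted p = 0.0634). The laccase gene Lcc2 was at 14, 6.2 and 7.7 CPM and then at 2.9 and 4.18 CPM. Its stage 2 libraries were both lower, and its change of -1.37 ± 0.63 did not pass (adjusted p = 0.0933). CFS2 was not called on the 5 primordium libraries alone (adjusted p = 0.0925), and its log2 change was 2.94 without stage 1 replicate 2.

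Among genes called in all 3 fits, those with the largest changes have no symbol; their products are not described in the reference used, and they are named by locus tag. Of the changes that hold in each library, 407 rises and 158 falls were at least 4-fold in each stage 2 library against the stage 1 mean, with 0.5 CPM added. The 8 with the largest change in the library that changed less were transcripts of 289 to 750 nt on the rising side, against a median of 1317 nt for all genes tested and 1266 nt for the 407 rises.

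**Figure D3:**
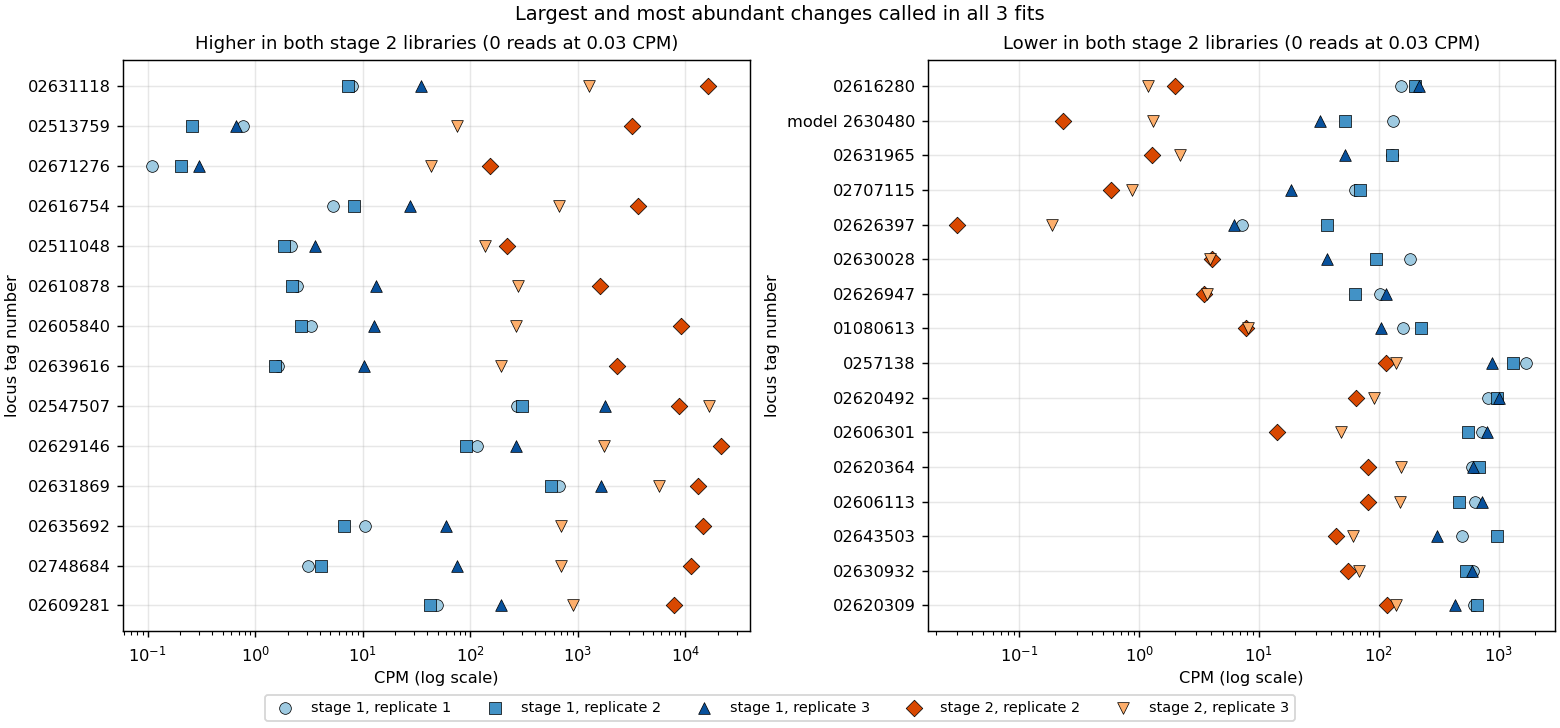
CPM on a log axis of the largest and most abundant rises (left) and falls (right) among genes called in all 3 fits, each point a library, with 0 reads drawn at 0.03 CPM. Stage 2 replicate 2 is the highest library in all rises shown except SCHCODRAFT_02547507, and stage 1 replicate 3 is the highest of stage 1 in the rises except SCHCODRAFT_02513759.

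SCHCODRAFT_02631118 was at 7.98, 7.23 and 35.1 CPM in stage 1 and at 16200 and 1260 CPM in stage 2. Replicate 2 was 963-fold and replicate 3 was 75-fold above the stage 1 mean (9.02 ± 1.65, adjusted p = 0.00166). The stage 2 libraries were far apart, and both were far above all of stage 1. SCHCODRAFT_02513759 was at 0.765, 0.256 and 0.667 CPM in stage 1, or 14, 5 and 11 reads, and at 3210 and 75.6 CPM in stage 2 (11.51 ± 2.28, adjusted p = 0.00244). Its fold over stage 1 was 5700 by replicate 2 and 134 by replicate 3. SCHCODRAFT_02671276 went from 2, 4 and 5 reads, at most 0.303 CPM, to 154 and 43.1 CPM (8.88 ± 2.14, adjusted p = 0.00695). DESeq2, used as an alternative, gave no result for SCHCODRAFT_02631118 and SCHCODRAFT_02513759. The same was so for SCHCODRAFT_02605840, SCHCODRAFT_02610878, SCHCODRAFT_02639616, SCHCODRAFT_02635692 and SCHCODRAFT_02748684, described below.

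The stage 2 libraries were nearer each other for SCHCODRAFT_02511048, at 2.13, 1.85 and 3.58 CPM in stage 1 and at 220 and 138 CPM in stage 2. It was 87.5-fold and 54.8-fold above the stage 1 mean, with the smallest relative error of these rises (6.15 ± 0.45, adjusted p = 2.1e-05), and was still at 91.6 ± 46.5 CPM in the young fruiting body and 76.2 ± 11.1 CPM in the fruiting body (SD, n = 3 each). SCHCODRAFT_02610878 went from 2.46, 2.2 and 13.3 CPM to 1610 and 280 CPM (269-fold and 46.8-fold), and was back at 16.2 ± 9.76 and 15.7 ± 19.1 CPM in those later stages. These 2 genes rose by a similar factor in replicate 3 and had different levels afterwards; the later difference was not tested. SCHCODRAFT_02616754, SCHCODRAFT_02605840 and SCHCODRAFT_02639616 rose 42.4-fold to 48.4-fold by replicate 3 and 261-fold to 1450-fold by replicate 2.

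The rises that reached the highest read counts followed the same pattern with 1 exception. SCHCODRAFT_02547507 was at 271, 300 and 1780 CPM in stage 1 and at 8690 and 16600 CPM in stage 2, higher in replicate 3 (4.02 ± 0.85). SCHCODRAFT_02629146 was at 116, 92.1 and 267 CPM and then at 21500 and 1770 CPM, and SCHCODRAFT_02631869 at 675, 563 and 1650 CPM and then at 13100 and 5650 CPM. In the latter, stage 1 replicate 3 was over 2-fold above its 2 companions, and stage 2 replicate 3 was 5.87-fold above the stage 1 mean. SCHCODRAFT_02635692, SCHCODRAFT_02748684 and SCHCODRAFT_02609281 reached 14600, 11200 and 7770 CPM in replicate 2 and 697, 693 and 907 CPM in replicate 3. For 365 of the 407 rises stage 1 replicate 3 was the highest of the stage 1 libraries, and for 930 of the 1267 rises that hold. Over all 14302 genes tested it was the stage 1 library nearest to stage 2 for 7523. Without stage 1 replicate 3, the fold change itself moved by over 1.5-fold in 11 of the 33 named genes that changed in each library. One of them was SCHCODRAFT_02547507, with a log2 change of 5.48 instead of 4.02. None of the 33 lost its call in the joint fit. All are genes called in all 3 fits, and most were named for large or abundant changes, so this is a weak check.

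Among these largest and most abundant changes, most falls differed less between the stage 2 libraries than most rises. The medians of the whole sets did not show this. The 158 falls of at least 4-fold had median log2 changes of -3.203 by replicate 2 and -2.685 by replicate 3. The 407 rises had 3.656 and 3.182. SCHCODRAFT_02616280 was at 154, 199 and 216 CPM in stage 1 and at 1.98 and 1.18 CPM in stage 2, 17 and 19 reads. It was 96.2-fold and 160-fold below the stage 1 mean (-6.95 ± 1.03, adjusted p = 0.000585) and at 12.8 ± 10.4 CPM in the young fruiting body (SD, n = 3). SCHCODRAFT_02626947 was at 102, 63.1 and 115 CPM and then at 3.49 and 3.68 CPM, a fall of 26.7-fold and 25.3-fold (-4.70 ± 0.44). The stage 2 libraries were nearly equal there and also in SCHCODRAFT_02630028 (4.07 and 3.93 CPM, from 37.2 to 184 CPM) and SCHCODRAFT_01080613 (7.78 and 8.1 CPM, from 104 to 227 CPM).

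The lowest counts were those of SCHCODRAFT_02626397, which had 132, 721 and 102 reads in stage 1 and 0 and 3 reads in stage 2 (adjusted p = 0.00449). SCHCODRAFT_02631965 and SCHCODRAFT_02707115 fell to 2.18 CPM or less, from 52.5 to 130 CPM and from 18.6 to 69.5 CPM. The transcript model 2630480, which matched no locus tag, was at 131, 52.2 and 32.5 CPM in stage 1 and at 0.232 and 1.31 CPM in stage 2.

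Among the falls from the highest levels, SCHCODRAFT_0257138 was at 1700, 1330 and 884 CPM in stage 1 and at 114 and 138 CPM in stage 2 (-3.37 ± 0.62). SCHCODRAFT_02620492 was at 822, 966 and 1010 CPM and then at 65 and 90.5 CPM (-3.58 ± 0.46), and SCHCODRAFT_02630932 at 616, 538 and 595 CPM and then at 55 and 68.6 CPM (-3.24 ± 0.30). In all 3 the stages were well apart; the stage 1 libraries were near each other for the last 2 and nearly 2-fold apart for SCHCODRAFT_0257138. SCHCODRAFT_02606301, SCHCODRAFT_02620364, SCHCODRAFT_02606113, SCHCODRAFT_02643503 and SCHCODRAFT_02620309 fell by log2 changes between -2.16 and -4.46, and stage 2 replicate 2 was the lower library in all 5.

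A few genes were very low in 1 stage and higher in the other. They were picked after their values were seen. Under 1 CPM in each stage 1 library and over 10 CPM in each stage 2 library were 3 genes, SCHCODRAFT_02513759, SCHCODRAFT_02671276 and SCHCODRAFT_02716916, the last at 0.492, 0.513 and 0.546 CPM and then at 33.0 and 10.6 CPM. The reverse was seen in 3 genes, SCHCODRAFT_02699348, SCHCODRAFT_0237706 and SCHCODRAFT_02707115. SCHCODRAFT_0237706 was at 21.0, 26.2 and 20.3 CPM and then at 0.465 and 0.748 CPM. All 6 changed in each library. No read in stage 2 with at least 10 reads in each stage 1 library was found for 2 genes, Hyd9 and SCHCODRAFT_02671935, and no gene showed the reverse.

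Some calls rested on 1 stage 2 library. The stage 2 libraries were over 4-fold apart in 506 genes, 3.54% of those tested. Of these, 324 were called and 104 changed in each library, as 41.5% and 16.1% of all genes tested did. SCHCODRAFT_02507548 had 0, 0 and 4 reads in stage 1, 20818 in stage 2 replicate 2 and 50 in replicate 3, or 2420 and 3.12 CPM. With replicate 3 alone it was not called (adjusted p = 0.153). SCHCODRAFT_02731600 was at 0.656, 0.103 and 0.182 CPM in stage 1, 333 CPM in replicate 2 and 0.249 CPM in replicate 3, which lay among the stage 1 libraries. The log2 change of SCHCODRAFT_02731600 was -0.33 with replicate 3 alone (adjusted p = 0.932), so its call was that of replicate 2. SCHCODRAFT_059174 was at 703 and 2.81 CPM in stage 2, with replicate 3 between the stage 1 values of 0.0513 and 4.61 CPM. Its call ended without stage 1 replicate 1 or 2 too (adjusted p = 0.0565 and 0.0533).

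On the falling side, SCHCODRAFT_02752351 went from 294, 582 and 631 CPM to 1.74 and 83 CPM, and SCHCODRAFT_02599942 from 1680, 1760 and 2500 CPM to 40.3 and 383 CPM. Neither was called with replicate 3 alone (adjusted p = 0.161 and 0.118), although both stage 2 libraries lay below stage 1. The call of SCHCODRAFT_02752351 also ended without any 1 of the stage 1 libraries (adjusted p = 0.0603 to 0.0825). SCHCODRAFT_02668077, at 241, 316 and 638 CPM and then at 2.9 and 30.5 CPM, changed in each library (-4.55 ± 1.03). Both single-library fits made calls of opposite sign in 6 genes. Another 182 genes were over 4-fold apart in stage 2 and not called; replicate 3 was the higher in 110 of them.

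Levels between genes were set side by side as TPM, unique reads per transcript length, scaled to the same total in each library. SCHCODRAFT_02372730 was the most abundant model in all 3 stage 1 libraries, at 63800, 61900 and 62300 TPM, and was at 29800 and 17900 TPM in stage 2. In CPM after TMM scaling its log2 change was not called (-0.68 ± 1.43, adjusted p = 0.73), and replicate 2 was then within the range of stage 1. SCHCODRAFT_02605614 led stage 2 replicate 2 at 40300 TPM and was the second in replicate 3 at 25800 TPM, from 1860, 4730 and 14300 TPM in stage 1; it was called with replicate 2 alone and not with replicate 3 alone. SCHCODRAFT_02624825 was the fifth most abundant in stage 1 replicate 1 at 10000 TPM, with 5330 and 2600 TPM in the others, and was at 7.93 and 2.22 TPM in stage 2. It was called in the joint fit (adjusted p = 0.0195) and with neither library alone (adjusted p = 0.102 and 0.0895). Of the 50 most abundant models per length, stage 1 libraries shared 38 to 44, the stage 2 libraries shared 27, and stage 1 libraries shared 14 to 17 with stage 2 replicate 2 and 26 to 32 with replicate 3.

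The 1267 rises that hold took 3.79%, 3.87% and 4.82% of unique reads in stage 1 and 23.6% and 17.2% in stage 2. The 1039 falls took 15.1%, 16.3% and 11.9% and then 2.25% and 4.67%. These shares restate the choice of the genes in the primordium libraries; the other stages had no part in the single-library comparison except through the shared spread. The rises took 9.54% to 10.1% in the vegetative mycelium, 8.69% to 11.4% in the young fruiting body and 13.6% to 24.6% in the fruiting body.

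**Figure D4:**
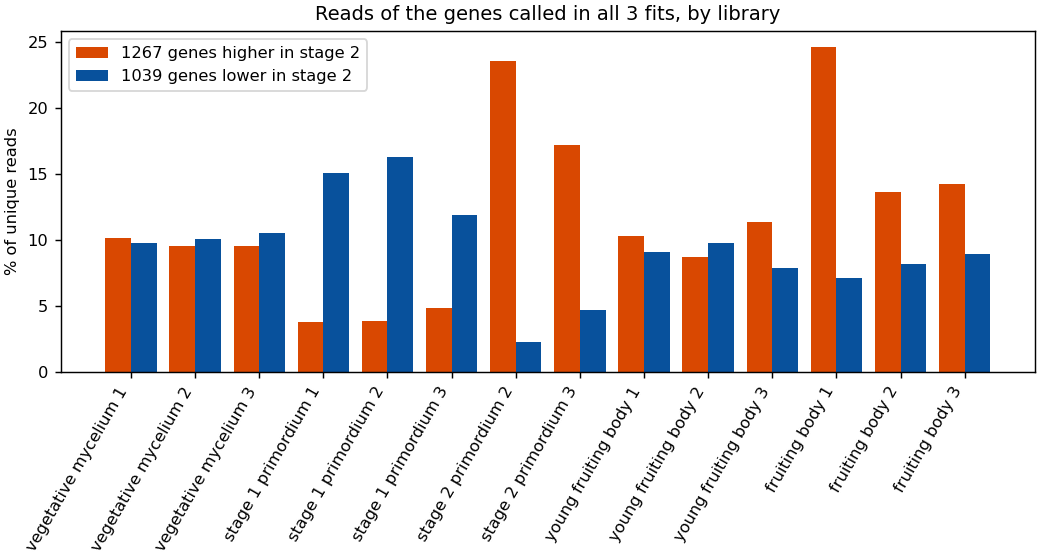
Share of unique reads (y axis, percent) taken in each of the 14 libraries by the 1267 genes higher (orange) and the 1039 genes lower (blue) in stage 2 by all 3 fits. In the young fruiting body the rises take 8.69% to 11.4%, between their shares in stage 1 and in stage 2, and in fruiting body replicate 1 they take 24.6%.

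Of the 407 rises of at least 4-fold, 295 (72.5%) were nearer to stage 2 than to stage 1 on the log scale in the young fruiting body, 280 (68.8%) in the fruiting body and 93 (22.9%) in the vegetative mycelium. Over all genes tested these shares were 45.9%, 50.1% and 46.4%. Of the 158 falls of at least 4-fold, 93 (58.9%), 121 (76.6%) and 119 (75.3%) were nearer to stage 2. The median log2 CPM of the 407 rises was 2.79 in stage 1, 6.61 in stage 2, 5.33 in the young fruiting body, 5.95 in the fruiting body and 2.91 in the mycelium. The fruiting body libraries differed, as these rises took 17.27% of unique reads in replicate 1 and 7.438% and 8.064% in replicates 2 and 3. The values are descriptions with no test, and the mycelium was read on another flow cell.

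In the gene order of the reference, a larger share of the neighbours of genes that changed in each library did so too than of all genes. Of 2446 neighbouring places of the rises, 356 (14.55%) were also rises that hold, against 8.749% of all ordered genes. For the falls it was 260 of 2044 (12.72%), against 7.294%. The kit keeps no strand, so reads of overlapping genes cannot be told apart; with the pairs whose spans overlap left out the shares were 13.48% and 12.75%. No test was made of these shares.

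The longest run was of 5 neighbouring falls within 9.38 kb, without overlap: SCHCODRAFT_02608031, SCHCODRAFT_01144647, SCHCODRAFT_02481375, SCHCODRAFT_02608038 and SCHCODRAFT_02563187. Their log2 changes ran from -2.88 to -1.24 with a median of -1.79. The most abundant, SCHCODRAFT_02563187, was at 840, 803 and 849 CPM in stage 1 and at 152 and 261 CPM in stage 2. The largest fall was that of SCHCODRAFT_01144647, from 12.7, 19.2 and 11.1 CPM to 1.05 and 2.68 CPM. In all 5 both stage 2 libraries lay below stage 1. A run of 4 falls ended in SCHCODRAFT_02630028, described above, and also held SCHCODRAFT_01355009, which went from 368, 256 and 445 CPM to 89.8 and 86.5 CPM.

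In all there were 5 runs of 4 rises and 3 runs of 4 falls. A run of rises over 3.38 kb held SCHCODRAFT_02445012, at 0.0546, 0.872 and 2.49 CPM in stage 1 and at 14.2 and 25.9 CPM in stage 2, and SCHCODRAFT_02491032, at 0.273, 0.615 and 2.18 CPM and then at 10.2 and 24.7 CPM. Both were higher in stage 2 replicate 3 than in replicate 2, and 1 pair of neighbours in that run overlaps.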

How the data were processed

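Raw read counts per transcript model were deposited by the authors as 1 table per library, written by CLC per the file headers; unique gene reads were used and total gene reads as an alternative. Tools in the submitters' processing notes, listed with no role, were limma 3.18.13, edgeR 3.4.2 and R 3.0.2. For the aligner, the counter and the build the answer is: not given in the sources used here. Libraries were made without strand, per the labels' protocols. Between 0.59% and 0.89% of a library's reads had several placements.

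Of 16319 models, 16013 were matched to locus tags of a RefSeq gene table (assembly Schco3) by number, mostly at an offset of 287 (14009 matches; next best 1180 over 4001 offsets), 11 by older tags and 295 not at all; 20 symbols were matched. Lists planned by product name or protein pattern could not be applied.

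The test was edgeR's (4.0.16, under R 4.3.3) with its own filter on low counts by stage, TMM factors and a robust quasi-likelihood model of stage for all 14 libraries, two-sided, Benjamini-Hochberg over 14302 genes. SE is the log2 change over the square root of F. Stage 2 replicates 2 and 3 were each left out in turn. Replicates are separate samples of a stage, with groups taken from the labels. Named were all symbol genes; the 8 largest and 8 most abundant changes per direction among those that hold and are at least 4-fold in each stage 2 library; and the 3 calls per direction whose stage 2 libraries differ most. Members and lists were chosen with earlier results of these data known. Alternatives were DESeq2 1.42.0, limma 3.58.1 with voom, other scalings, filters, library sets, a replicate block and leaving out each primordium library. DESeq2 gave a result for 43 of the 55 named genes. Those without one included Hyd3, Hyd5 and many of the largest rises. Tested on simulated data (13870 genes, 100 changed per fold size, stage 2 against stage 1), 9% of 2-fold and 79% of 4-fold changes were found again, and 3 of 91 calls were false. The simulation gave a gene the same spread in all stages and changed few genes. In the data the biological coefficient of variation was 0.459 in stage 2 and 0.0919 in the mycelium, and 41.5% of genes were called. These simulated shares therefore do not carry over to the data.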

Additional observations from a re-analysis of the deposited data

How the results depend on the processing

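Without a scaling factor 1799 genes were higher and 32.6% of calls were, which turns the majority, and fitted on the 5 primordium libraries alone 3939 were called, 2104 higher and 1835 lower. Leaving out 1 library gave 3069 to 5902 calls, 1787 to 3247 higher, 1282 to 2655 lower and 1017 to 2324 of at least 4-fold, the lowest of each without stage 2 replicate 2. Changes that hold in each stage 2 library numbered 1305 to 2504, with 1402 without stage 1 replicate 1 and 1305 without replicate 2, of which 1376 and 1281 were among the 2306; these were added after seeing the data. They numbered 2307 with DESeq2 size factors, 2277 (1657 shared; 1090 higher, 1187 lower) on the 5 libraries alone and 1866 (1536 shared) by a 2-fold rule without test. The sign turned for Hyd4 without stage 1 replicate 2 (-2.41 to 0.72), bbp2-1 without stage 2 replicate 3 (-0.29 to 0.04) and SCHCODRAFT_02731600 without stage 2 replicate 2 (-0.33 to 10.20); the causes were not tested. WC1 and c2h2 kept their call under all 14 alternatives. Deviations of same-numbered libraries correlated at -0.128 and -0.148, but 2 stage 2 libraries give a single contrast, so whether the numbers pair samples was not shown and they were used as names; the replicate block gave 5374 calls and ended those of Hyd3, SC3, Bri1 and bar3 (adjusted p = 0.0533 to 0.0758), with no other named call changed. In the simulated data, whose setting differs from the real libraries, 4-fold changes were far better covered than 2-fold ones.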
